A study of Homo sapiens with 18 samples.

Results

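A set of 40 genes of the response to low oxygen and of glycolysis was followed in spheroidal aggregates of 2 human brain tumor lines exposed to a direct current electrical field (dcEF). The members were chosen by name, and every name was found in the deposited table, where 389 of 145326 transcripts carried it. Their estimated counts were summed by gene, which gave 40 of the 32490 gene names in the table. By role they comprised 4 genes of the oxygen-sensing machinery, 15 targets of the hypoxic response, 4 genes of glucose and lactate transport and its control, and 17 enzymes or regulators of glycolysis. U87 mg is a widely used glioblastoma line and DAOY a line from a desmoplastic cerebellar medulloblastoma, and the labels name no introduced gene and no drug in either. In both lines, aggregates gelled for 24 h in a 1:1 mix of medium and growth-factor-reduced Matrigel inside an electrotaxis channel, and then received 250 V/m for 0 h (the control), 2 h or 8 h. Each of the 6 conditions had 3 replicates, numbered 0 to 2, and each replicate pooled 3 channels. The libraries were those that ranked best in quality control among the biological replicates prepared, except in DAOY at 8 h, where poor RNA had already cost a sample and no choice remained. Field-free aggregates of the later times were not analysed here, so that effects of the field and of the hours spent in the channel cannot be told apart.

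Cells sense oxygen through the alpha subunits of hypoxia-inducible factor (HIF), HIF1A and EPAS1. In well-oxygenated cells the prolyl hydroxylases EGLN1 and EGLN3 mark these subunits for destruction, so that HIF activity is set mainly by protein stability and less by the transcript. When oxygen falls, stabilised HIF binds DNA at sites built around the core letters ACGTG or GCGTG, and raises genes of glucose uptake, glycolysis, pH control, mitochondrial removal, collagen modification and blood vessel growth. Spheroids of tumor cells can hold less oxygen in the centre than at the rim, and in glioblastoma this programme is known from the cells that border necrotic tissue. Neither oxygen nor HIF protein was measured in these samples.

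The 18 libraries held between 8341976 and 15610886 estimated counts, of which mitochondrial transcripts took between 2.83% and 8.44%. The 40 members together took 2% to 3.04% of the counts in U87 mg and 0.744% to 1.45% in DAOY. The lines could be told apart by some of their markers. EN2 and OTX2, homeobox genes of the midbrain-hindbrain region and of the cerebellar precursors, were detected in all 9 DAOY libraries (4.10 to 9.51 TPM and 1.15 to 2.44 TPM) and were listed at 0 in all 9 U87 mg libraries. In U87 mg the mesenchymal glioma genes VIM (3997 to 5341 TPM), CD44 (2565 to 3547 TPM) and CHI3L1 (76.3 to 156 TPM) were high, while the glial markers GFAP, S100B, SOX2, OLIG2 and FABP7 did not exceed 3.11 TPM. VIM (1719.5 to 2970 TPM) and CD44 (885 to 1533 TPM) were also high in DAOY, where CHI3L1 was at 2.35 to 15.3 TPM. SOX2 was higher in DAOY, at 2.93 to 6.92 TPM. Of the Hedgehog medulloblastoma markers, PTCH1 and BOC were present in DAOY, whereas the median of GLI1 was 0 TPM. GLI1 and GLI2 were higher in U87 mg (medians 2.99 and 3.60 TPM, against 0 and 1.05 TPM in DAOY). The ranges of TNC, ZIC1 and PAX6 overlapped between the lines. Among the markers of other cell types, PTPRC and AIF1 (leukocytes), CDH5 and VWF (endothelium) and RBFOX3 (neurons) stayed below 1 TPM in every library. Other markers on the same lists were expressed, among them CD68 (247 to 602 TPM in U87 mg and 10.8 to 43.9 TPM in DAOY), CD74 (62.0 to 135 TPM) and CSF1R (2.31 to 12.1 TPM) in U87 mg, PECAM1 (5.46 to 12.9 TPM) in DAOY, and SNAP25 (15.5 to 31.0 TPM in U87 mg and 8.00 to 22.6 TPM in DAOY). The neuronal SYT1 was at 4.29 to 9.27 TPM in U87 mg and 5.57 to 9.32 TPM in DAOY. GAD1 was at 3.42 to 8.28 TPM and 1.01 to 4.58 TPM. Lower levels were seen for SLC17A7 (1.48 to 3.67 TPM) and TEK (0.724 to 3.42 TPM) in DAOY, and for KDR (1.32 to 2.14 TPM) in U87 mg. Replicate 0 at 0 h stood apart from its companions in both lines, with 6.17% (U87 mg) and 5.29% (DAOY) of all genes tested at least 2-fold below both other replicates, and with expression that changed by -0.478 (U87 mg) and -0.512 (DAOY) on the log2 scale for each 10% more GC in the transcript. The tests between conditions and lines were therefore repeated with this trend removed and, in a further fit, without these libraries and without replicate 2 of DAOY at 8 h.

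Because the aggregates may differ in how much of their volume is poorly oxygenated, the spread between replicates was examined first. It was measured as the SD of log2 CPM (counts scaled to a common library size by TMM) over the 3 replicates of a condition. In U87 mg the median SD of the members was 0.400 at 0 h, 0.18 at 2 h and 0.298 at 8 h. The median of all 14106 genes tested was 0.239, 0.179 and 0.208. Without replicate 2 at 0 h, the median SD at 0 h was 0.220 for the members and 0.248 for all genes. In DAOY, where 39 members passed the filter on low counts and CA9 did not, the median SD was 0.359, 0.254 and 0.701, against 0.343, 0.240 and 0.229 over all 15396 genes tested. The members thus varied most between replicates in DAOY at 8 h. Pooled over the 3 conditions, 32 of 40 members in U87 mg and 33 of 39 in DAOY had an SD above the median gene of the same line. Relative to genes of like abundance, the biological coefficient of variation of the members was 1.30 times the fitted trend in U87 mg and 1.34 times in DAOY (medians), and that of all genes 0.898 and 0.859 times.

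**Figure D1:**
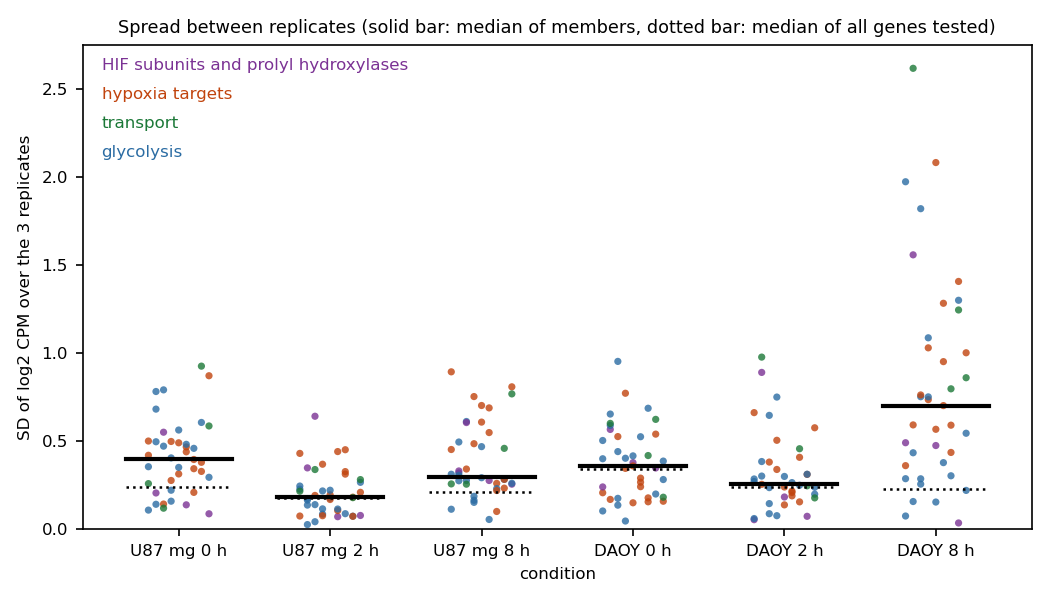
SD of log2 CPM over the 3 replicates of each condition (vertical axis) for every member, coloured by role, with the median of the members (solid bar) and of all genes tested (dotted bar). The bars lie close together for U87 mg at 2 h and for DAOY at 0 h and 2 h, and far apart in DAOY at 8 h, where the median of the members is 0.701 and that of all genes 0.229.

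The pooled spread differed between the roles, but their order was not the same in each condition. In DAOY the pooled SD had a median of 0.699 for the transport genes, 0.543 for the hypoxia targets, 0.409 for glycolysis and 0.341 for the oxygen sensors. At 0 h alone these medians were 0.509, 0.253, 0.402 and 0.362, so the hypoxia targets were then the most even role. In U87 mg at 0 h they were 0.422, 0.395, 0.458 and 0.171. The largest pooled values in DAOY belonged to TXNIP (1.65), ALDOC (1.24) and NDRG1 (1.22), and the smallest to PGAM1 (0.174), HIF1A (0.206) and HK1 (0.236). In U87 mg the largest were CA9 (0.696), SLC16A3 (0.605) and EGLN3 (0.600), and the smallest were HIF1A (0.162), HK1 (0.167) and PGAM1 (0.168). The same 3 genes were thus the most even members in both lines. Of the other genes of these pathways, 26 further hypoxia targets had a median pooled SD of 0.595 in DAOY, against 0.244 for 24 further glycolysis genes and 0.196 for 10 further HIF regulators.

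A single library accounted for the spread in DAOY at 8 h. In replicate 2, 19 of 39 members (48.7%) lay at least 2-fold above both other replicates in CPM, a position held by 1.62% of all genes tested in the same library. This library was the highest of the condition for 36 of 39 members and for 4956 of all 15396 genes tested. The members exceeded the mean of the other replicates by a median of 1.13 on the log2 scale. For 32 of the 40 members its level in TPM was also above every DAOY library at 0 h and 2 h. The same held for 24 of 29 further hypoxia targets, 4 of 26 further glycolysis genes and 4 of 11 further HIF regulators. This position was not counted over all genes. Without this library, the median SD in DAOY at 8 h was 0.164 for the members and 0.186 for all genes. Its total of 10007714 counts, mitochondrial share of 6.03% and GC trend of -0.00281 on the log2 scale per 10% of GC lay inside the range of the other DAOY libraries. A set of 9 genes was chosen by level. Each had at least 10 TPM in every U87 mg library and at most 0.2 TPM in DAOY at 0 h and 2 h. At 8 h these genes reached 0.0438%, 0.13% and 0.254% of their U87 mg level in replicates 0, 1 and 2 of DAOY. The earlier DAOY libraries were held low by the choice itself. In replicate 2 a single gene, AL109763, gave 0.997 of the 1.136 TPM. EN2 was at 9.01, 9.51 and 9.41 TPM in replicates 0, 1 and 2. The cause of its difference was not tested.

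**Figure D2:**
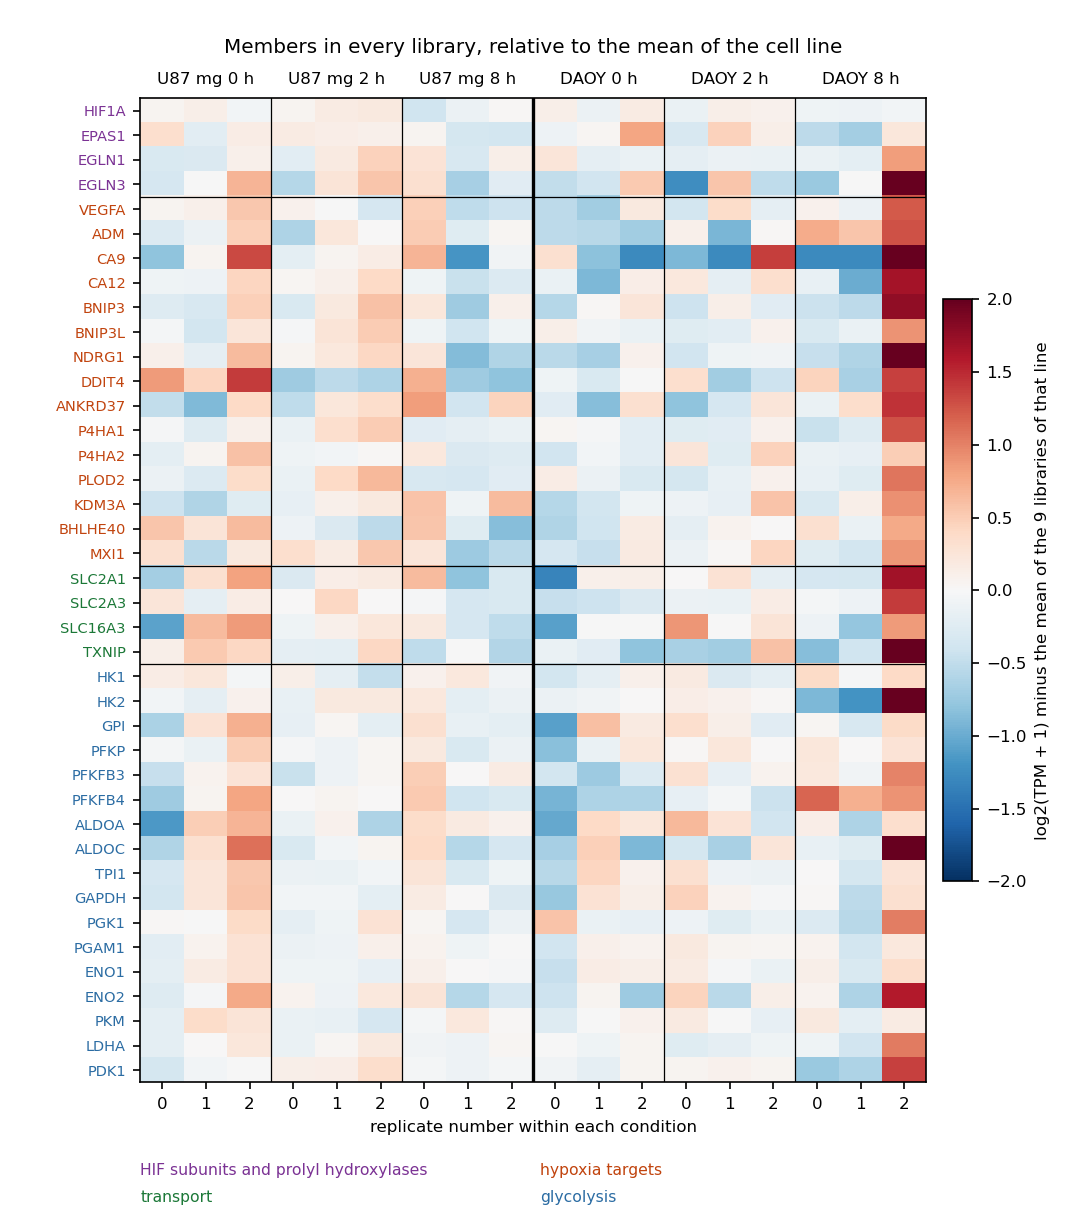
Level of the 40 members (rows, grouped by role) in the 18 libraries (columns), as log2(TPM + 1) minus the mean of the 9 libraries of the same line, with the colour scale ending at -2 and 2. The column of DAOY at 8 h, replicate 2, is red for most targets and transport genes, and pale for HIF1A and for PKM, PFKP and HK1.

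The genes that stood out in this library were ordered by role. Of the sensors, EGLN3, a hydroxylase that is itself a HIF target, was at 59.6, 99.4 and 498 TPM in replicates 0, 1 and 2 at 8 h, and EGLN1 at 57.5, 54.8 and 114 TPM. HIF1A itself was even, at 643, 640.0 and 657 TPM, and EPAS1 was at 13.9, 12.3 and 23.9 TPM. In replicate 2 the ratio to the mean of the others was 6.26 for EGLN3, 2.03 for EGLN1, 1.82 for EPAS1 and 1.02 for HIF1A. Among the pH regulators, the membrane carbonic anhydrase CA9 was listed at 0, 0 and 80.4 TPM, which were 0, 0 and 673 estimated counts, and its relative CA12 at 7.91, 3.96 and 30.2 TPM. NDRG1, a stress-induced gene often used as a marker of hypoxic tumor cells, was at 31.4, 28.4 and 294 TPM, which is 9.83 times the mean of replicates 0 and 1 in replicate 2. The mitophagy receptors BNIP3 and BNIP3L were at 16.9, 15.8 and 81.7 TPM and at 70.4, 78.9 and 163 TPM. In TPM, replicate 2 was more than 2-fold above both other replicates in each of these targets, although BNIP3L did not reach this margin in CPM.

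Of the collagen-modifying enzymes, P4HA1 was at 68.5, 78.1 and 229 TPM, its paralog P4HA2 at 109, 106 and 168 TPM and PLOD2 at 215, 202 and 499.8 TPM. VEGFA, the main angiogenic growth factor, was at 79.9, 69.4 and 178 TPM. DDIT4, an inhibitor of mTORC1 signalling, was at 20.5, 9.12 and 39.8 TPM. The histone demethylase KDM3A was at 33.2, 44.8 and 78.9 TPM and the repressors BHLHE40 and MXI1 at 35.5, 25.7 and 48.6 TPM and at 20.5, 18.8 and 45.8 TPM. Over the 14 targets with a ratio, the ratio of replicate 2 to the mean of the others ran from 1.57 in ADM to 9.83 in NDRG1, with a median of 2.39. The ankyrin-repeat gene ANKRD37 was at 2.12, 3.38 and 8.32 TPM. The vasodilator peptide gene ADM was at 16.9, 14.8 and 24.9 TPM, and here replicates 0 and 1 also lay above all 6 earlier DAOY libraries.

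Among the transporters, the glucose carriers SLC2A1 and SLC2A3 were at 38.8, 38.4 and 161 TPM and at 38.0, 36.2 and 105 TPM, and the lactate exporter SLC16A3 at 12.8, 7.70 and 25.8 TPM. TXNIP, an arrestin-like protein that restrains glucose uptake, was at 1.52, 2.44 and 39.5 TPM, the largest ratio of replicate 2 to the mean of replicates 0 and 1 among the members (19.9). The enzymes of glycolysis divided by isoform. HK2, the inducible hexokinase, was at 3.60, 2.74 and 34.2 TPM and the constitutive HK1 at 56.8, 42.8 and 57.7 TPM. ALDOC was at 2.105, 1.92 and 15.2 TPM and ALDOA at 526, 312 and 608 TPM. ENO2 was at 17.0, 10.1 and 50.3 TPM and ENO1 at 1542, 1153 and 1824 TPM. In each of these 3 pairs the less abundant isoform carried the larger ratio of replicate 2 to the others (10.8, 7.54 and 3.71, against 1.16, 1.45 and 1.35). PDK1, a kinase that inhibits pyruvate dehydrogenase, was at 11.96, 13.1 and 55.0 TPM. LDHA, which makes lactate, was at 1058, 859 and 2294 TPM and PGK1 at 422, 346 and 1033 TPM.

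The remaining enzymes differed less between the 3 replicates. GAPDH was at 1981, 1359 and 2445 TPM, TPI1 at 615, 478 and 736 TPM and GPI at 97.5, 75.8 and 124 TPM. PGAM1 was at 277, 204 and 307 TPM, PKM at 1735, 1332 and 1709.5 TPM and the platelet-type phosphofructokinase PFKP at 64.8, 56.2 and 67.3 TPM. The bifunctional enzymes that set the level of the activator of phosphofructokinase parted ways, with PFKFB3 at 19.8, 16.0 and 34.5 TPM and PFKFB4 at 19.999, 14.4 and 16.5 TPM. PFKFB4 was the member with the smallest ratio of replicate 2 to the mean of the others (0.961). Over the 39 members with a ratio, its median was 2.33 and 23 members reached 2. Reads that also match processed pseudogenes or close paralogs make the levels of GAPDH, PGAM1, LDHA, ENO1, TPI1, PGK1 and SLC2A3 less certain than those of the other members.

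The promoters of the members are shown for 4 genes that mark the contrast between replicates and conditions, namely CA9 and BNIP3, which were high in replicate 2, and PFKFB4 and ADM, which are described below as changed in all 3 replicates. The letters are the 250 bases before the RefSeq start on GRCh38.p14, written 5′ to 3′ on the strand of the gene, and capitals mark the core of the HIF site, ACGTG or GCGTG, on either strand (read as CACGT or CACGC on the other one).
PFKFB4 (chr3:48556804-48557053, minus strand): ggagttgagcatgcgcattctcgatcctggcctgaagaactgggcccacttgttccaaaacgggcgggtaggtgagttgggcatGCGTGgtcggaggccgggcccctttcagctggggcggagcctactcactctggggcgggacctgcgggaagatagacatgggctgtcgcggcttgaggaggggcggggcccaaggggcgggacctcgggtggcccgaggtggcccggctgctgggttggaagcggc
ADM (chr11:10304823-10305072, plus strand): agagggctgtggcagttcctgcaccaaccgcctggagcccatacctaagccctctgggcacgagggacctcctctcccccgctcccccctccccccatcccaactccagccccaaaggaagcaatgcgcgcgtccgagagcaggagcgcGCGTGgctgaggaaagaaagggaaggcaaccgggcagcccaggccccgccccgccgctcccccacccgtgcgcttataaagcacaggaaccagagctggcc
CA9 (chr9:35673678-35673927, plus strand): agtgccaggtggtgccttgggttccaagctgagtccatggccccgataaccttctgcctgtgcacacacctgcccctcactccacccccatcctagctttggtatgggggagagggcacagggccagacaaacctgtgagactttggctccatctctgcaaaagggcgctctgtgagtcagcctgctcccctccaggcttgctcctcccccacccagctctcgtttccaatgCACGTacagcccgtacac
BNIP3 (chr10:131981924-131982173, minus strand): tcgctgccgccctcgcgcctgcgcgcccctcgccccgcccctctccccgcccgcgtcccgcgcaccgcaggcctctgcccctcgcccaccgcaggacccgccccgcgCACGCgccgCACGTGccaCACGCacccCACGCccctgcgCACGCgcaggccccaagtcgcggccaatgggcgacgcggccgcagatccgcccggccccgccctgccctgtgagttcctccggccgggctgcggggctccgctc
The windows of PFKFB4 and ADM lie inside the longer gene models of GENCODE 29 (chr3:48517684-48562015 and chr11:10304680-10307397), and those of CA9 and BNIP3 overlap one end of theirs (chr9:35673856-35681159 and chr10:131966455-131982013). CA9 held 1 core, which began 18 bases before the start. BNIP3 held 6 core matches, of which a pair overlapped in the palindrome CACGTG, while PFKFB4 and ADM held 1 each. Entries on the chromosome that carries NDRG1 and BNIP3L were left out for the members but kept for all genes. Whether these genes have a promoter entry was therefore not examined. Of the members, 36 had at least 1 entry among those used, and SLC2A3 and VEGFA had none. The shares that follow thus rest on different rules for the members and for all genes. A core was present in 42 of 61 member entries (68.9%) and in 15172 of 35116 entries of all genes (43.2%). Counted by gene, 31 of 36 members (86.1%) and 47.4% of 27305 symbols had at least 1 core. The members had more entries per gene (61 for 36 genes, against 35116 for 27305 symbols). A count by gene thus gave them more windows in which a core can occur. The members were also chosen as genes of this response, so these shares describe the set and are not a test. EGLN3, which was high in replicate 2, had no core in its window, and PFKFB4, which was not, had 1. A match describes the letters and does not show that the factor binds there.

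U87 mg aggregates showed a weaker form of shared replicate spread. Replicate 2 at 0 h was the highest of its condition for 34 of 40 members and for 4047 of all 14106 genes tested. It lay above the mean of the other replicates for 37 members, and the median difference was 0.566 on the log2 scale. Replicate 0 at 8 h was also the highest for 34 members, with a median of 0.474, and for 5321 of all genes. Positions above the mean of the others were not counted over all genes. These were the most deeply sequenced libraries of the line, with 15610886 and 14767816 counts. Their expression also rose with GC, by 0.198 and 0.239 on the log2 scale per 10% of GC, as it did in replicate 1 at 0 h (0.28). The parts of depth and of GC in this were not tested. Replicate 1 at 8 h was low, with 3 of 40 members above the mean of the others and a median of -0.443. CA9 was at 38.2, 69.9 and 170.0 TPM at 0 h, 59.0, 70.1 and 75.0 TPM at 2 h and 108, 29.3 and 64.4 TPM at 8 h. SLC16A3 was at 26.4, 87.9 and 103 TPM, 53.1, 60.5 and 66.5 TPM and 65.0, 44.5 and 39.5 TPM at these times. EGLN3, scarce in this line, was at 3.39, 4.53 and 7.90 TPM, 2.75, 5.65 and 7.12 TPM and 5.97, 2.504 and 3.74 TPM. In all 3 genes the range within the controls was wider than the range of the 3 condition means. HIF1A was at 695, 727 and 647 TPM, 695, 749.5 and 765 TPM and 507, 617 and 680.4 TPM, and PGAM1 at 530.4, 649 and 749 TPM, 566, 572 and 658 TPM and 649, 578 and 615 TPM.

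The comparison of DAOY at 8 h with 0 h asked whether these genes changed over the longer exposure to the field. A call needed a false-discovery rate (FDR) below 0.05 and a change of at least 2-fold. Of the members, 2 of 39 members rose and 0 fell, where 3.13% of all 15396 genes tested were called and 1.19% rose. The FDR is the Benjamini-Hochberg adjusted p of edgeR's quasi-likelihood test over all genes. PFKFB4, which makes and removes the activator of phosphofructokinase, was at 3.92, 5.11 and 5.09 TPM at 0 h, 7.41, 8.18 and 5.996 TPM at 2 h and 19.999, 14.4 and 16.5 TPM at 8 h. The 3 groups did not overlap in either step. Its rise at 8 h had a log2 fold change of 1.70 ± 0.24 (SE, FDR 0.00884). It rose without replicate 2 at 8 h as well (log2 fold change 1.70, FDR 0.0412), and it missed the threshold without replicate 1 at 8 h (FDR 0.0537). ADM was at 6.43, 6.25 and 5.61 TPM, 10.4, 4.67 and 9.90 TPM and 16.9, 14.8 and 24.9 TPM at the same times. The 8 h values of ADM all exceeded the 0 h and 2 h values, while the 2 h values overlapped those at 0 h. Its rise had a log2 fold change of 1.62 ± 0.33 (SE, FDR 0.0233), and it missed the threshold without replicate 1 or 2 at 0 h (FDR 0.0527 and 0.0707) and without replicate 1 or 2 at 8 h (FDR 0.0682 and 0.0928).

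**Figure D3:**
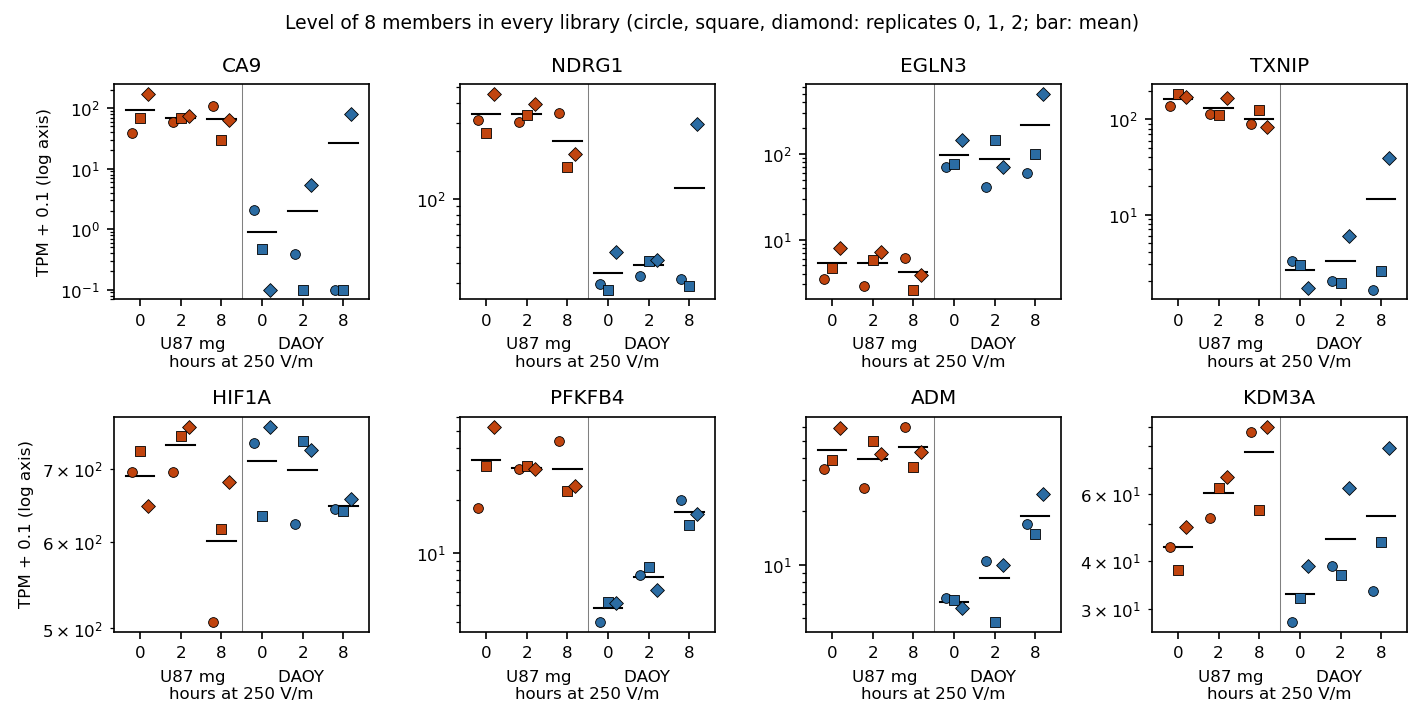
TPM + 0.1 on a log axis (vertical) of 8 members in every library, by line and hours of field (horizontal), with a marker shape per replicate and a bar at the mean. In DAOY at 8 h the diamond of replicate 2 stands alone for CA9, NDRG1, EGLN3 and TXNIP, whereas the 3 replicates of PFKFB4 and ADM lie together above the controls.

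An unadjusted p under 0.05 was reached by 10 of 39 members (25.6%), against 22.7% of all genes. The next smallest p-values belonged to PFKFB3, SLC2A3 and HK1. PFKFB3 was at 12.9, 9.86 and 13.8 TPM at 0 h and 21.1, 14.9 and 17.9 TPM at 2 h, and had a log2 fold change of 0.92 ± 0.29 (SE, FDR 0.0877) at 8 h. SLC2A3 was at 28.0, 29.1 and 31.8 TPM and 36.0, 35.4 and 43.3 TPM, with a log2 fold change of 1.08 ± 0.35 (SE, FDR 0.0996). HK1 was at 33.7, 38.5 and 47.0 TPM and 49.5, 35.3 and 37.8 TPM, with a log2 fold change of 0.55 ± 0.19 (SE, FDR 0.112). None of these 3 passed the adjusted threshold. In TPM, all 8 h values exceeded all 0 h values for 4 members, ADM, PFKFB3, PFKFB4 and SLC2A3, a separation found in 8.86% of all genes tested, and 0 members lay below, against 15% of all genes.

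The direction of the other members at 8 h rested on replicate 2. With all libraries, 37 of 39 fold changes were above 0, with a median of 0.54 on the log2 scale, whereas the median of all genes was -0.01. By role, the median was 1.07 for the 4 transport genes, 0.78 for the 14 hypoxia targets tested, 0.45 for the 17 glycolysis genes and -0.08 for the 4 sensors. Without replicate 2 at 8 h, 17 fold changes were above 0 and 22 below, with a median of -0.05. PFKFB4 then rose and HK2 fell, where 36 of all 15713 genes tested rose and 39 fell, and the other 37 members passed neither way. HK2 had been at 6.85, 7.13 and 7.62 TPM at 0 h and 8.35, 8.08 and 7.68 TPM at 2 h, so that replicates 0 and 1 at 8 h lay below all 6 earlier libraries and replicate 2 above them. Its log2 fold change at 8 h was 0.93 ± 0.74 (SE) with replicate 2 and -1.15 without it (FDR 0.0465 by edgeR's quasi-likelihood test). EPAS1 was among the 2 members with a negative fold change in all libraries (log2 fold change -0.59 ± 0.26 SE, FDR 0.21), with levels of 18.9, 21.0 and 35.9 TPM at 0 h and 16.1, 28.4 and 22.2 TPM at 2 h. When replicate 2 at 8 h and replicate 0 at 0 h were left out together in DAOY, 0 members were called, 15 of 39 fold changes were above 0 and PFKFB4 had a log2 fold change of 1.51 (FDR 0.0531).

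**Figure D4:**
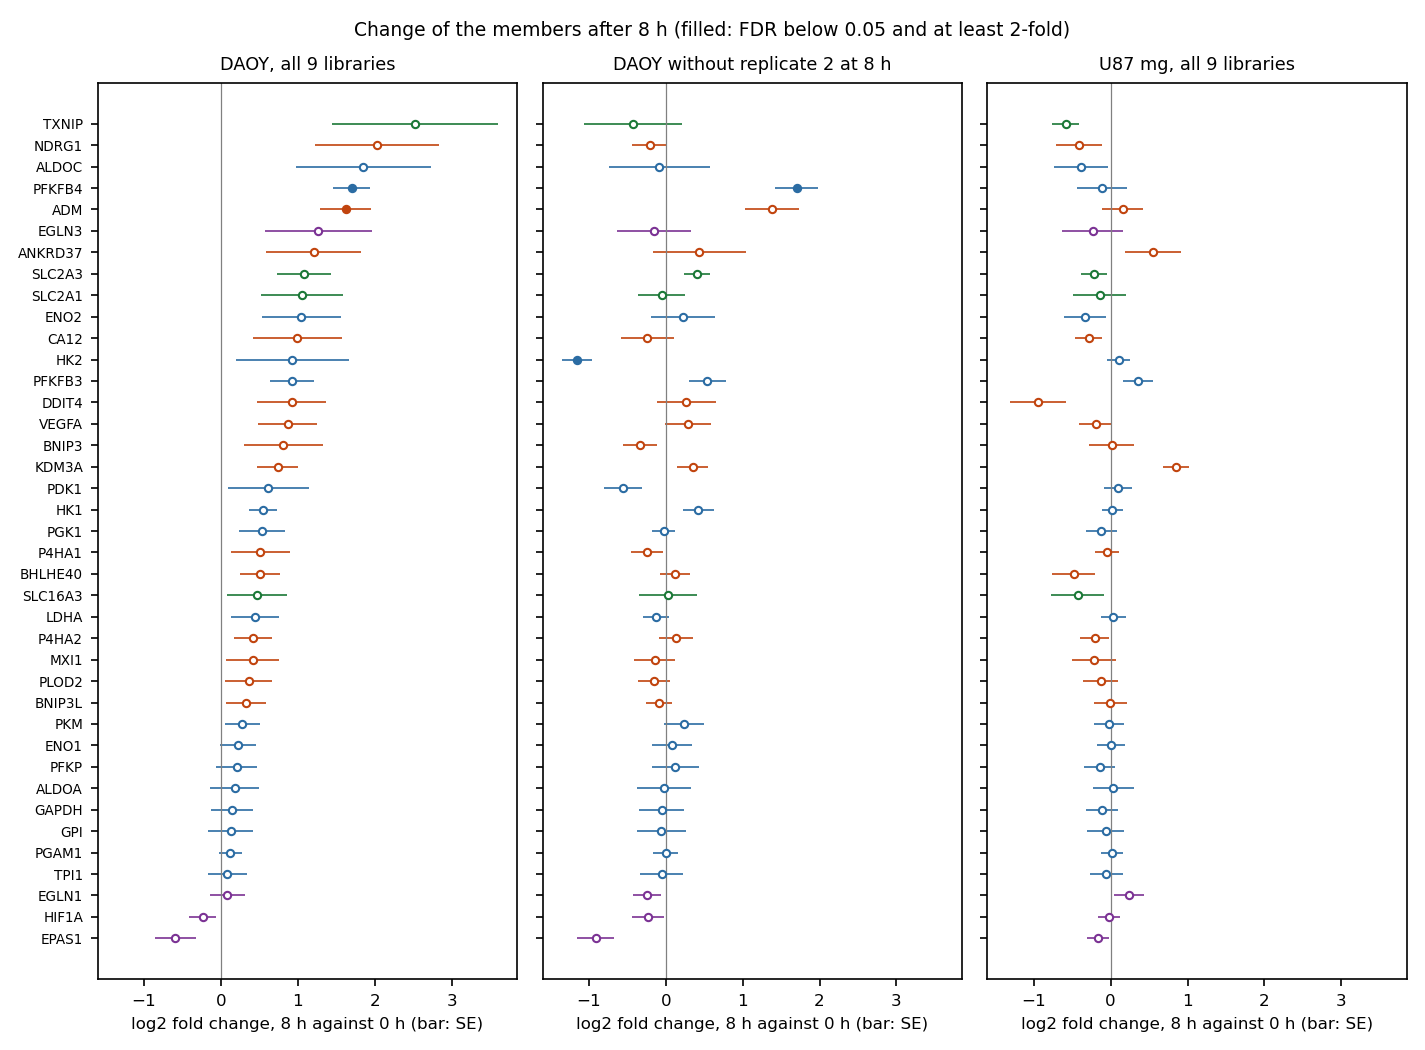
Log2 fold change of each member at 8 h against 0 h with its SE (horizontal), in DAOY with all libraries, in DAOY without replicate 2 at 8 h, and in U87 mg, with members in the same order in each panel and filled points for called members. The shift to the right in the left panel (37 of 39 above 0) is absent from the middle panel (17 of 39), where PFKFB4 stays at 1.70.

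After 2 h in DAOY, 0 of 39 members were called by edgeR, DESeq2 or limma, as were 0% of all genes by edgeR, and 1 member, PFKFB4, had an unadjusted p under 0.05 (2.75% of all genes). The 5 smallest p-values were those of PFKFB4 (log2 fold change 0.54), PFKFB3 (0.49), P4HA2 (0.37), SLC16A3 (0.54) and PFKP (0.28), each with an FDR of 0.999. P4HA2 was at 90.9, 115 and 103 TPM at 0 h and 142, 101 and 166 TPM at 2 h. SLC16A3 was at 6.06, 13.8 and 13.9 TPM and 26.4, 13.8 and 16.9 TPM, and PFKP at 30.5, 50.4 and 65.1 TPM and 56.2, 65.5 and 55.6 TPM. In these 3 genes the lowest control was replicate 0, with a GC trend of -0.512 on the log2 scale per 10% of GC. Other libraries of this comparison also had a trend, namely replicate 1 at 0 h (0.376) and replicates 0 and 2 at 2 h (0.276 and -0.219). The part of GC in these values was not tested. In TPM, all 2 h values exceeded all 0 h values for HK2, PFKFB3, PFKFB4 and SLC2A3 (3.59% of all genes) and lay below them for LDHA (3.88%). From 2 h to 8 h, PFKFB4 was the 1 member called, where 1.04% of all genes were called and 0.383% were called higher, with a log2 fold change of 1.16 ± 0.24 (SE, FDR 0.0406). This call was lost in 10 of 22 alternatives, among them the fits without any of the 3 replicates at 2 h or at 8 h, without replicate 2 at 0 h, with protein-coding transcripts alone and without the libraries that stood apart, with FDR values from 0.0585 to 0.163. ADM had a log2 fold change of 1.28 ± 0.33 (SE, FDR 0.0722). Of 39 members, 32 had a fold change above 0 between 2 h and 8 h and 7 an unadjusted p under 0.05 (18.7% of all genes). The median of all genes in this comparison was -0.028 on the log2 scale.

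TXNIP, ALDOC and EGLN3 show how the controls and 2 h samples of DAOY varied. TXNIP was at 3.11, 2.87 and 1.598 TPM at 0 h and 1.88, 1.80 and 5.83 TPM at 2 h, with replicate 2 the highest at 2 h. ALDOC was at 1.17, 3.75 and 0.839 TPM and 1.69, 1.19 and 3.06 TPM. EGLN3 was at 71.1, 76.3 and 144 TPM and 41.6, 147 and 70.3 TPM. All 6 earlier libraries lay far below replicate 2 at 8 h in these genes. CA9 was close to the limit of detection, at 4, 4 and 0 counts at 0 h and 1, 0 and 15 counts at 2 h, so no fold change is given for it in DAOY.

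In U87 mg, 0 of 40 members were called at 2 h or at 8 h, where 0% and 0.638% of all 14106 genes tested were called. An unadjusted p under 0.05 was reached by 3 members at 2 h (8.78% of all genes) and by 3 at 8 h (15.9%), and DESeq2 and limma on log2(TPM + 1) also called 0, with 3 or 4 members under that p. The histone lysine demethylase KDM3A, a HIF target, was at 43.4, 37.8 and 48.9 TPM at 0 h, 51.7, 62.0 and 66.5 TPM at 2 h and 86.8, 54.2 and 89.9 TPM at 8 h. All its values under the field lay above all controls. Its 8 h change passed the FDR but not the 2-fold limit (log2 fold change 0.85 ± 0.17 SE, FDR 0.029), and it missed the FDR in 9 of 22 alternatives. In DAOY, KDM3A was at 27.6, 31.9 and 38.7 TPM, 38.6, 36.6 and 61.8 TPM and 33.2, 44.8 and 78.9 TPM, with a log2 fold change of 0.74 ± 0.26 (SE, FDR 0.129). A difference between the lines in this 8 h change was not detected (DAOY minus U87 mg -0.10 ± 0.34 (SE) on the log2 scale).

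DDIT4 and BHLHE40 had the smallest p-values in U87 mg at 2 h and had negative fold changes. DDIT4 was at 109.5, 81.6 and 161 TPM at 0 h, 36.6, 41.7 and 39.0 TPM at 2 h and 99.2, 36.4 and 34.0 TPM at 8 h. All 2 h values lay below all controls, and 1 of the 8 h values did not. The log2 fold change was -1.59 ± 0.37 (SE) at 2 h (FDR 0.495) and -0.95 ± 0.36 at 8 h (FDR 0.222). DDIT4 passed both limits at 2 h without replicate 0 at 0 h (FDR 0.0419) and at 8 h without replicate 0 at 8 h (FDR 0.0205). BHLHE40, a repressor of transcription that is also part of the circadian clock, was at 132, 107 and 139 TPM, 83.0, 72.9 and 62.1 TPM and 132, 75.8 and 49.1 TPM. Its log2 fold change was -0.89 at 2 h (FDR 0.495) and -0.48 at 8 h (FDR 0.457). TXNIP was at 139, 184 and 171 TPM, 113, 111 and 169 TPM and 88.8, 127 and 84.1 TPM, with all 8 h values below all controls and a log2 fold change of -0.58 ± 0.18 (SE, FDR 0.125) at 8 h.

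The other members with small p-values moved by less than 2-fold on average. HK1 was at 255, 269 and 224 TPM at 0 h, 249.7, 204 and 165 TPM at 2 h and 244, 266 and 221 TPM at 8 h, and its log2 fold change at 2 h was -0.32. PKM was at 2439, 3613 and 3348 TPM, 2544, 2534 and 2210.1 TPM and 2718, 3256 and 2856 TPM, with -0.40 at 2 h. BNIP3L was at 295, 233 and 359 TPM, 299, 359.6 and 428 TPM and 283, 228 and 284 TPM, with 0.40 at 2 h. These 3 changes had an FDR of 0.495 and did not pass. PFKFB3 was at 31.7, 46.2 and 53.3 TPM, 32.0, 40.9 and 45.2 TPM and 62.4, 44.2 and 49.3 TPM and had a log2 fold change of 0.36 ± 0.20 (SE, FDR 0.409) at 8 h. In TPM, KDM3A and PDK1 were the members with all 2 h values above all controls (10.8% of all genes) and BHLHE40 and DDIT4 those with all values below (4.49%). At 8 h these were KDM3A (5.8% of all genes) and TXNIP (10.2%). From 2 h to 8 h, 0 of 40 members were called (0.397% of all genes) and 3 had an unadjusted p under 0.05 by edgeR (19.5% of all genes), 6 by DESeq2 and 8 by limma, which also called 0. Across the members, 14 of 40 fold changes were above 0 at 2 h (median -0.16 on the log2 scale) and 13 at 8 h (median -0.11), where the medians of all genes were -0.021 and -0.001.

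PFKFB4 and ADM, the members that rose in DAOY, were higher in U87 mg at every time, with fold changes near 0 at 8 h. PFKFB4 was at 17.96, 31.2 and 53.0 TPM at 0 h, 30.2, 31.3 and 30.2 TPM at 2 h and 43.8, 22.5 and 24.1 TPM at 8 h, and its 8 h change was a log2 fold change of -0.11 ± 0.32 (SE, FDR 0.925). ADM was at 34.6, 38.7 and 58.7 TPM, 27.0, 49.6 and 42.1 TPM and 59.9, 35.4 and 43.2 TPM, with a log2 fold change of 0.15 ± 0.27 (SE, FDR 0.856) at 8 h. The difference between the 8 h changes of both lines was tested as an interaction in all 18 libraries, where 0 of 40 members were called by edgeR (0.0121% of all genes), 0 by limma and 1 by DESeq2, and 12 had an unadjusted p under 0.05 (8.88% of all genes). For PFKFB4 the difference, DAOY minus U87 mg, was 1.81 ± 0.44 (SE) on the log2 scale with an FDR of 0.183, which became 0.0321 with the GC trend removed and 0.0141 by DESeq2. For ADM it was 1.47 ± 0.45 (SE), with an FDR of 0.288. Of the 40 differences 36 were above 0 with all libraries, where the median of all genes was -0.020 on the log2 scale. Without replicate 2 of DAOY at 8 h, 25 were above 0 and the median of all genes was -0.033. An unadjusted p under 0.05 was then reached by 6 members and by 1255 of all 16948 genes tested.

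The lines differed far more from each other than either did under the field. At 0 h, 34 of 40 members were called between DAOY and U87 mg, of which 33 were lower in DAOY and 1, EGLN3, was higher. Over all 16482 genes tested in the 18 libraries, 41.2% were called, 17.8% lower and 23.4% higher in DAOY. An unadjusted p under 0.05 was reached by 35 members and by 64.3% of all genes. The median log2 fold change of the members was -2.195 and that of all genes 0.048. The members not called were HIF1A, EGLN1, KDM3A, MXI1, GPI and ENO1. In TPM, all DAOY controls lay below all U87 mg controls for 33 members (23.4% of the 16364 genes tested in either line) and above them for EGLN3 (33.6%). In bulk RNA, fewer cells with an active programme and less RNA of that programme per cell cannot be told apart.

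**Figure D5:**
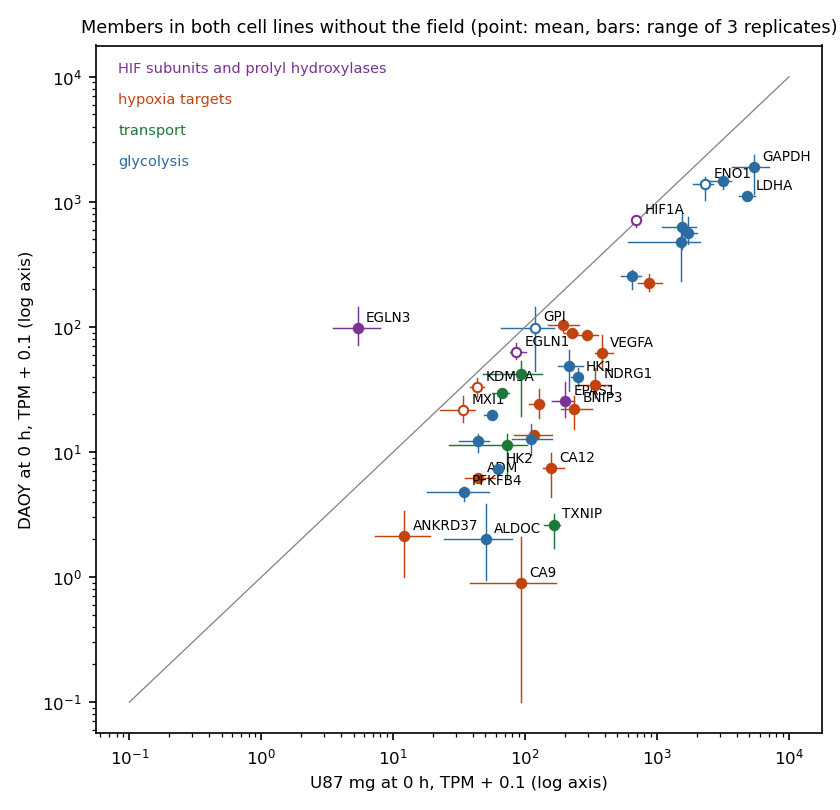
Mean level of each member at 0 h in U87 mg (horizontal) and DAOY (vertical), as TPM + 0.1 on log axes, with bars over the range of the 3 replicates and filled points for members called between the lines. Most members lie below the diagonal of equal level, EGLN3 lies far above it and HIF1A on it.

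The oxygen sensors were the role with the least common direction. HIF1A was at 695, 727 and 647 TPM in U87 mg and at 738, 633 and 764 TPM in DAOY at 0 h, and the ranges overlapped (log2 fold change 0.19 ± 0.16 SE, FDR 0.324). EPAS1, the alternative alpha subunit, was at 236, 159.7 and 205 TPM in U87 mg and at 18.9, 21.0 and 35.9 TPM in DAOY (log2 fold change -3.17 ± 0.24 SE, FDR 5.58e-09). EGLN1, the main oxygen sensor of most cells, was at 76.6, 77.3 and 102 TPM in U87 mg and at 74.5, 55.3 and 57.7 TPM in DAOY (log2 fold change -0.39 ± 0.23 SE, FDR 0.156). EGLN3 was at 3.39, 4.53 and 7.90 TPM in U87 mg and at 71.1, 76.3 and 144 TPM in DAOY (log2 fold change 4.01 ± 0.70 SE, FDR 8.40e-05). EPAS1 was thus lower and EGLN3 higher in DAOY, and a difference in HIF1A was not detected. The value for HIF1A was -0.030 without replicate 0 of DAOY at 0 h.

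All 15 hypoxia targets had a negative fold change in DAOY, and 13 were called. The largest differences were in the carbonic anhydrases. CA9 was at 38.2, 69.9 and 170.0 TPM in U87 mg and at 2.01, 0.363 and 0 TPM in DAOY, and CA12 at 138, 137 and 196 TPM in U87 mg and at 8.02, 4.28 and 9.79 TPM in DAOY (log2 fold change -4.51). Of the mitophagy receptors, BNIP3 was at 194, 186 and 324 TPM in U87 mg and at 15.2, 23.4 and 27.7 TPM in DAOY (-3.58), and BNIP3L at 295, 233 and 359 TPM in U87 mg and at 94.4, 82.6 and 79.0 TPM in DAOY (-2.17). The lines overlapped in none of these genes. NDRG1 was at 312, 257 and 451 TPM in U87 mg and at 29.6, 27.1 and 46.5 TPM in DAOY (-3.61), DDIT4 at 109.5, 81.6 and 161 TPM in U87 mg and at 14.0, 11.8 and 14.7 TPM in DAOY (-3.28) and VEGFA at 335, 343 and 466 TPM in U87 mg and at 52.1, 46.3 and 86.3 TPM in DAOY (-2.57). ADM was at 34.6, 38.7 and 58.7 TPM in U87 mg and at 6.43, 6.25 and 5.61 TPM in DAOY (-2.86), and ANKRD37 at 9.73, 7.21 and 19.0 TPM in U87 mg and at 1.93, 0.907 and 3.27 TPM in DAOY (-2.31). BHLHE40 was at 132, 107 and 139 TPM in U87 mg and at 18.4, 21.2 and 32.1 TPM in DAOY (-2.30). Among the enzymes of collagen modification the differences were smaller than in any other called target. P4HA1 was at 231, 197 and 253 TPM in U87 mg and at 96.3, 92.5 and 81.0 TPM in DAOY (-1.38) and P4HA2 at 149, 176 and 257 TPM in U87 mg and at 90.9, 115 and 103 TPM in DAOY (-1.13). PLOD2 was at 784, 711 and 1097 TPM in U87 mg and at 265, 220.2 and 192 TPM in DAOY (-1.85). KDM3A and MXI1 were not called, KDM3A at 43.4, 37.8 and 48.9 TPM in U87 mg and at 27.6, 31.9 and 38.7 TPM in DAOY (FDR 0.158) and MXI1 at 41.4, 22.4 and 38.0 TPM in U87 mg and at 19.0, 17.4 and 27.8 TPM in DAOY (FDR 0.0975).

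All 4 transport genes were lower in DAOY. TXNIP was at 139, 184 and 171 TPM in U87 mg and at 3.11, 2.87 and 1.598 TPM in DAOY (log2 fold change -5.97), the largest difference after CA9. SLC2A1 was at 47.5, 95.96 and 134 TPM in U87 mg and at 19.2, 53.4 and 53.4 TPM in DAOY (log2 fold change -1.23 ± 0.50 SE, FDR 0.0435), with overlapping ranges, and missed the threshold in 12 of 30 alternatives. SLC2A3 was at 74.8, 55.7 and 70.0 TPM in U87 mg and at 28.0, 29.1 and 31.8 TPM in DAOY (-1.23), and SLC16A3 at 26.4, 87.9 and 103 TPM in U87 mg and at 6.06, 13.8 and 13.9 TPM in DAOY (-2.77). SLC2A3 and SLC16A3 were thus lower in every DAOY control than in every U87 mg control. SLC16A1, a lactate carrier that is not a member, had a median of 158 TPM over the DAOY libraries and 123 TPM over those of U87 mg.

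The members of glycolysis were lower in DAOY from hexokinase to LDHA, and 15 of 17 were called. LDHB, which is not a member, had a median of 1180 TPM over the DAOY libraries and 983 TPM over those of U87 mg. At the entry, HK1 was at 255, 269 and 224 TPM in U87 mg and at 33.7, 38.5 and 47.0 TPM in DAOY (log2 fold change -2.76) and HK2 at 61.0, 56.4 and 67.6 TPM in U87 mg and at 6.85, 7.13 and 7.62 TPM in DAOY (-3.14). GPI, the following enzyme, was at 65.3, 124 and 167 TPM in U87 mg and at 43.9, 144 and 107 TPM in DAOY and was not called (FDR 0.229). PFKP was at 189, 179 and 274 TPM in U87 mg and at 30.5, 50.4 and 65.1 TPM in DAOY (-2.29). Of its regulators, PFKFB3 was at 31.7, 46.2 and 53.3 TPM in U87 mg and at 12.9, 9.86 and 13.8 TPM in DAOY (-1.86), and PFKFB4 at 17.96, 31.2 and 53.0 TPM in U87 mg and at 3.92, 5.11 and 5.09 TPM in DAOY (-2.88). Both hexokinases and both regulators were thus lower in every DAOY control than in every U87 mg control. Further down, ALDOA was at 599, 1865 and 2124 TPM in U87 mg and at 235, 629.5 and 562 TPM in DAOY (-1.57) and ALDOC at 24.0, 46.3 and 80.0 TPM in U87 mg and at 1.17, 3.75 and 0.839 TPM in DAOY (-4.73). TPI1 was at 1085, 1608 and 1980.0 TPM in U87 mg and at 417, 819.6 and 647 TPM in DAOY (-1.40), and GAPDH at 3698, 5660.0 and 7036 TPM in U87 mg and at 1156, 2378 and 2124 TPM in DAOY (-1.64). PGK1 was at 1574, 1534 and 2013 TPM in U87 mg and at 758, 465 and 456 TPM in DAOY (-2.08), and PGAM1 at 530.4, 649 and 749 TPM in U87 mg and at 202, 283 and 278 TPM in DAOY (-1.43). In ALDOA the ranges overlapped, and replicate 0 was the lowest in both lines.

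Of the last enzymes of the pathway, ENO1 was at 1885, 2429 and 2633 TPM in U87 mg and at 1038, 1583 and 1542 TPM in DAOY, a difference that passed the FDR but not the 2-fold limit (log2 fold change -0.87 ± 0.22 SE, FDR 0.00198). ENO2, the neuronal enolase, was at 78.7, 92.2 and 159.9 TPM in U87 mg and at 11.8, 16.7 and 9.36 TPM in DAOY (log2 fold change -3.21). PKM was at 2439, 3613 and 3348 TPM in U87 mg and at 1271, 1515 and 1606 TPM in DAOY (-1.25), LDHA at 4141, 4764 and 5539 TPM in U87 mg and at 1108, 1047 and 1155 TPM in DAOY (-2.22) and PDK1 at 48.3, 59.3 and 61.2 TPM in U87 mg and at 19.7, 18.1 and 21.5 TPM in DAOY (-2.41). In the pairs of isoforms ALDOA and ALDOC, and ENO1 and ENO2, the scarcer isoform had the larger fold change between the lines, while HK1 and HK2 had close values (-2.76 and -3.14). GAPDH, LDHA and PKM were the most abundant members per length in U87 mg, and GAPDH, PKM and ENO1 in DAOY.

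The other genes of the same pathways were followed by a wider list of 67 names, of which the filter kept 62 in U87 mg and 60 in DAOY. Over the 4 comparisons with 0 h, 2 were called, both higher and both in DAOY at 8 h, where 3.13% of all genes were called, so that 2 of 60 is a share near the background. JMJD6, a hydroxylase of the same protein family as KDM3A, was at 16.4, 23.7 and 27.6 TPM at 0 h, 34.4, 31.5 and 31.9 TPM at 2 h and 49.2, 46.7 and 58.1 TPM at 8 h (log2 fold change 1.27 ± 0.18 SE, FDR 0.00884). In U87 mg it was at 47.1, 48.2 and 53.9 TPM, 50.1, 48.8 and 46.7 TPM and 103, 77.9 and 83.9 TPM, and its 8 h change passed the FDR but not the 2-fold limit (log2 fold change 0.96 ± 0.14 SE, FDR 0.0158). STC2, a secreted glycoprotein of calcium and phosphate balance, was at 21.3, 11.2 and 38.7 TPM, 26.5, 38.8 and 38.7 TPM and 72.2, 72.3 and 130.1 TPM in DAOY (log2 fold change 2.00 ± 0.40 SE, FDR 0.022). In U87 mg it was at 45.4, 60.1 and 75.8 TPM, 38.7, 79.5 and 73.5 TPM and 87.9, 102 and 195 TPM (log2 fold change 1.18 ± 0.32 SE, FDR 0.093). In both genes the 3 replicates at 8 h lay above all earlier DAOY libraries. Without replicate 1 at 8 h both calls in DAOY were lost (FDR 0.0553 for JMJD6 and 0.0694 for STC2), and that of STC2 also without replicate 2 (FDR 0.0808). Of the further hypoxia targets tested in DAOY at 8 h, 22 of 26 had a fold change above 0 (median 0.496 on the log2 scale), against 6 of 24 further glycolysis genes (median -0.172) and 5 of 10 further HIF regulators. Without replicate 2 at 8 h, 3 of the 26 targets had a fold change above 0 and their median was -0.274. Replicate 2 at 8 h was the highest of the condition for 25 of these 26 targets and for 4956 of all 15396 genes tested. It lay at least 2-fold above both others for 16 targets (61.5%), against 3 of the 24 glycolysis genes and 1.62% of all genes.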

How the data were processed

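Spheroidal aggregates of U87 mg and DAOY were sequenced as stranded polyA libraries, read from 1 end, in 18 samples of 6 conditions. Per the labels and the study's methods, the authors estimated transcript abundance with Kallisto 0.43.0 on GRCh38.p5 and GENCODE 24. For every transcript and sample the deposited values are an estimated count and its TPM, which is scaled by transcript length to a common total. Whether the strand was used in the estimate is not given in the sources used here. The same table holds the authors' own comparisons from Sleuth 0.28.1 (p-values, q-values and log2 fold changes), which were not used.

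Here the estimated counts, of which 88.8% were not whole, were summed by gene name and rounded, and TPM was summed likewise. A name on more than 1 chromosome (18 names) was kept as 1 gene. Genes were kept by filterByExpr of edgeR 4.0.16 (R 4.3.3), scaled by TMM and tested with edgeR's quasi-likelihood test, in the 9 samples of each line for the field and in all 18 for the interaction and the lines, with Benjamini-Hochberg adjustment over all genes tested. Calls required an FDR under 0.05 together with a log2 fold change of 1 or more in size. Log2 CPM used a prior count of 2. The fits were first tested on simulated data in which known genes had been changed.

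The 40 members, the wider lists and the tests were chosen with earlier results of these data known. Values in every sample were given for members called in any comparison, the 5 smallest p-values against 0 h, the 3 largest and 3 smallest spreads per line and 10 pairs of related genes, and other pathway genes were named where called. The replicate numbers are not stated to mark a shared batch. Deviations of same-numbered libraries of different conditions correlated between -0.2 and 0.437, and those of differently numbered libraries between -0.275 and 0.448. The numbers were therefore not taken to pair samples. Between 2 h and 8 h, however, all same-numbered values were above 0 in both lines (0.0653 to 0.437), and whether these libraries share a batch was not tested. In none of the 18 pairs of libraries within a condition did the counts agree within sampling noise. The methods call the replicates biological, but the labels do not say that they came from separate cultures, so p-values measure the spread between these samples, which may be technical.

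Alternatives were DESeq2 1.42.0, limma 3.58.1 on log2(TPM + 1), RLE size factors, robust dispersion, a floor of 10 counts in each sample, no floor, protein-coding transcripts, the replicate block, other sample sets, the FDR alone and leaving out each replicate. Removal of the GC trend, with and without the block, and of 3 libraries together (replicate 0 at 0 h of each line and replicate 2 of DAOY at 8 h) were added after seeing the data. Gene coordinates come from GENCODE 29 and promoters from RefSeq on GRCh38.p14. Figures were drawn with matplotlib 3.10.9 under Python 3.11.15.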

Additional observations from a re-analysis of the deposited data

How the results depend on the processing

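Of 1815 recomputed values for 67 results, 1725 kept their direction and their side of the threshold, 45 lost it, 44 gained it and 1 reversed, HIF1A between the lines at 0 h (0.19 on the log2 scale, -0.030 without replicate 0 of DAOY at 0 h, and up to 0.326 without another replicate). Without a filter on low counts the members called were 1 for U87 mg at 2 h, 6 for DAOY at 8 h, 5 from 2 h to 8 h in DAOY and 13 for the difference between lines in the 8 h change, where 57 of 28396, 675 of 29791, 400 of 29791 and 157 of 32246 genes were called in all, and the other pathway genes called were 6. With the FDR alone these were 1 in U87 mg at 8 h (243 of 14106 genes) and 7 other pathway genes. With all 18 samples in a single fit, 4 members were called in DAOY at 8 h and 2 from 2 h to 8 h (732 and 428 of 16482 genes). DESeq2 called 2 from 2 h to 8 h in DAOY and 1 for the difference between lines (389 of 15382 and 56 of 16477 genes). Protein-coding transcripts alone left 0 from 2 h to 8 h in DAOY (66 of 12992 genes), and only the samples compared left 1 other pathway gene.

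Without the 3 libraries that stood apart, 1 member was called for U87 mg at 2 h, 0 for DAOY at 8 h and 0 other pathway genes (71 of 14487 genes in U87 mg and 22 of 15654 in DAOY). With the GC trend removed, 2 were called in DAOY from 2 h to 8 h and 1 for the difference between lines (411 of 15396 and 42 of 16482 genes). The median SD of the members then moved to 0.209 (DAOY, 0 h), 0.198 (DAOY, 2 h) and 0.294 (U87 mg, 0 h). That of all genes was 0.239, 0.195 and 0.171 in these conditions, so the members stayed above all genes in U87 mg at 0 h. The replicate numbers were not taken to pair the samples. With the replicate block, 0 members were called in DAOY from 2 h to 8 h, 2 at 8 h, 35 between the lines and 3 other pathway genes (50, 326 and 6181 of all genes in these comparisons), and with the block and the GC trend removed 1 in U87 mg at 8 h, 2 in DAOY from 2 h to 8 h and 1 for the difference between lines (228, 422 and 77 of all genes). The cause of these changes was not tested.

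Leaving out each replicate gave 0 to 1 members in U87 mg at 2 h and at 8 h, 0 to 2 in DAOY at 8 h, 0 to 1 from 2 h to 8 h in DAOY, 32 to 35 between the lines and 0 to 3 other pathway genes, and 0 throughout for U87 mg from 2 h to 8 h, DAOY at 2 h and the difference between lines. The median SD of the members then ran from 0.198 to 0.324 in DAOY at 0 h, 0.196 to 0.244 at 2 h and 0.164 to 0.81 at 8 h, and from 0.22 to 0.405 in U87 mg at 0 h, 0.136 to 0.22 at 2 h and 0.205 to 0.4 at 8 h. With 3 replicates and 8341976 to 15610886 counts per library, CA9 was removed by the filter on low counts in DAOY and is given there by its counts alone.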

Other observations

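Of the 26 further hypoxia targets, 16 lay at least 2-fold above both other replicates in replicate 2 of DAOY at 8 h (1.62% of all genes). The 5 described here were chosen after their values were seen. HILPDA, a lipid droplet protein, was at 228 TPM there and at a mean of 13.6 TPM in replicates 0 and 1, a ratio of 16.8. ANGPTL4, a secreted inhibitor of lipoprotein lipase, was at 46.4 TPM against 2.14 TPM, a ratio of 21.7. PLIN2, which coats lipid droplets, was at 113 TPM against 22.4 TPM, and the collagen-crosslinking enzyme LOX at 235 TPM against 53.8 TPM. AK4, a mitochondrial adenylate kinase, was at 72.9 TPM against 14.5 TPM. All 5 levels lay above every DAOY library at 0 h and 2 h. The median ratio was 2.4 over 26 further targets, 1.07 over 24 further glycolysis genes and 1.08 over 10 further HIF regulators.

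Some related genes had ratios below 1 in the same library. LDHB, the lactate dehydrogenase subunit of oxidative tissues, was at 757 TPM against 1047 TPM, a ratio of 0.724. EGLN2, a prolyl hydroxylase, was at 19.2 TPM against 27.0 TPM, and HIF1AN, which hydroxylates an asparagine of HIF, at 27.8 TPM against 34.8 TPM. These are values of a single library and were not tested.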
